A study of Arabidopsis thaliana with 8 samples.

Results

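The genes described here are 10 components of cytokinin signalling in Arabidopsis thaliana, chosen by their identifiers out of 27416 genes in a table of ribosome footprint counts. They are the receptors AHK2 (AT5G35750), AHK3 (AT1G27320) and AHK4 (AT2G01830), the type-B response regulators ARR1 (AT3G16857), ARR10 (AT4G31920) and ARR12 (AT2G25180), and the type-A response regulators ARR4 (AT1G10470), ARR5 (AT3G48100), ARR7 (AT1G19050) and ARR9 (AT3G57040). All 10 had enough counts to be tested, as did 15664 genes in all. Ribosome footprints are the stretches of mRNA that a ribosome covers and so protects when the rest is digested with RNase, and each count is a footprint on a coding sequence.

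The plants were Col seedlings, 4 days old, grown in sterile liquid medium with sucrose and harvested 3 h after lights on. Root and shoot were each extracted in 4 polysome buffers, all with the same detergents, DTT, cycloheximide and DNase I, which gave 4 root and 4 shoot libraries with 1 library for each tissue and buffer. Buffers A, B and C held 50, 40 and 30 mM KCl with 25, 20 and 15 mM MgCl2 in 200 mM Tris. Buffer D held 40 mM KCl and 20 mM MgCl2 in 100 mM Tris. The buffers served as the repeats of a tissue. The labels do not say that they came from separate plants, so a p-value here reflects the spread among these libraries alone, which may be technical.

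Cytokinins are adenine-derived hormones that promote cell division in the shoot and restrain growth of the root meristem. Their receptors are membrane histidine kinases, which pass a phosphate group through phosphotransfer proteins (AHPs) to response regulators in the nucleus. Type-B regulators are transcription factors that switch on cytokinin target genes. Type-A regulators are among the quickest of those targets, lack the DNA-binding part, and damp the signal in return.

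Library totals ran from 1120218 counts in root D to 3410266 in root A, and from 3746348 to 4501213 in shoot. The 10 genes together had 469 to 1350 counts in a root library and 664 to 869 in a shoot library. Tissue markers followed the labels. The summed level of 5 leaf and shoot epidermis markers (RBCS1A, CAB1, RCA, PDF1 and TMM) was 206 to 301 CPM (counts per 1000000) in root and 34510 to 39365 CPM in shoot. That of 5 root markers (PRP3, LRX1, CASP1, PER64 and PIN2) was 1586 to 2160 CPM in root and 61.2 to 154 CPM in shoot. TMM was at 0 in root A and root C, with 3 counts in root B and 13 in root D. Among root libraries the summed shoot markers were highest in root D, at 301 CPM. The CPM use each library's total times its TMM factor and take no account of coding length, so levels are compared between libraries and not between genes.

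The main comparison set root against shoot. Of the 10 genes, 4 were higher in root and 0 lower (quasi-likelihood test of edgeR with a term for tissue and one for buffer, Benjamini-Hochberg adjusted p under 0.05 over all genes). The 4 were the receptor AHK4, the type-B regulators ARR10 and ARR12 and the type-A regulator ARR5. Among all genes tested 40.3% were called, 17.8% higher in root and 22.6% lower. The median log2 fold change, root minus shoot, was 0.69 over the 10 genes and -0.12 over all genes, whose median standard error (SE) was 0.42. Each value combines mRNA level and translation. Since whole tissues were extracted, fewer cells that carry a gene and less of its RNA per cell cannot be told apart.

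The calls depended on the fit, and AHK4 and ARR10 passed under all 14 alternatives tried. With library totals alone 7 of the 10 genes were higher in root, ARR1, ARR4 and ARR9 being added, and 0 were lower, where 30.4% of all genes were called higher and 17.2% lower. That scaling moved the median of all genes to 0.38. Without the buffer term 6 were higher, with ARR1 and ARR4 added, and AHK3 and ARR7 were the 2 lower. Calls over all genes also rose then, from 2781 to 3228 higher and from 3534 to 3791 lower. With the library of either tissue in buffer B, or in buffer C, left out, AHK4 and ARR10 were the 2 higher. Of all genes 2146 were higher without root B and 2192 without root C. Leaving out root or shoot of the same buffer is nearly the same check, since the buffer term then absorbs the library that stays.

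**Figure D1:**
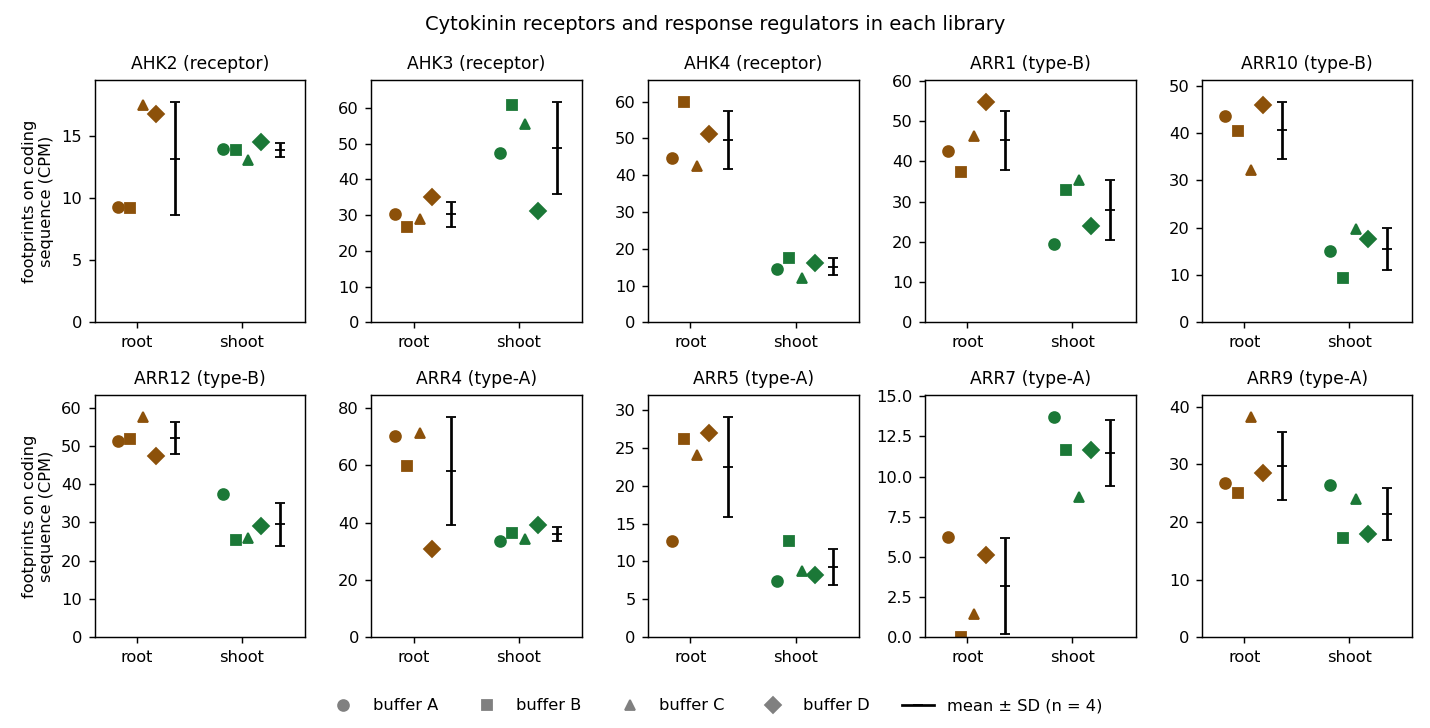
Footprint level of each gene in each library, in CPM with TMM scaling, with a linear axis from 0 in every panel. Brown points are root, green points are shoot, marker shapes are buffers and bars are the mean ± SD of 4 libraries; all root points of AHK4, ARR1, ARR10, ARR12 and ARR5 lie above all shoot points, and ARR7 shows the opposite.

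Of the 3 receptors 1 passed, AHK4, higher in root. AHK4, also called CRE1 or WOL, is needed for the cell divisions that form the vascular tissue of the root. Its level was 44.8, 59.9, 42.5 and 51.1 CPM in root A to D and 14.5, 17.6, 12.2 and 16.1 CPM in shoot A to D. The groups did not overlap. Root averaged 49.6 ± 7.80 CPM and shoot 15.1 ± 2.31 CPM (mean ± SD, n = 4), with a log2 fold change of 1.72 ± 0.26 (SE; edgeR adjusted p = 0.000299). The ratio within a buffer was close to constant, from 1.62 to 1.81 on the log2 scale.

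AHK3 is the receptor best known for delaying leaf senescence. Root values were 30.3, 26.6, 28.8 and 35.0 CPM and shoot values 47.5, 60.9, 55.5 and 31.2 CPM. Shoot D lay apart from the other shoot libraries and within the root range, so the groups overlapped. The log2 fold change was -0.66 ± 0.28, which did not pass (edgeR adjusted p = 0.0838). Without shoot D the value was -0.95 (edgeR adjusted p = 0.0173), and without root D it was -0.93 (edgeR adjusted p = 0.0208). Only these 2 of the 8 fits without 1 library passed. Without root B the value was -0.49 (edgeR adjusted p = 0.284). Thinning of all libraries to the smallest total gave -0.13 ± 0.42 (edgeR adjusted p = 0.852). The thinning was a random draw that was not repeated, so its values also carry sampling error.

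AHK2, the third receptor, acts largely in overlap with AHK3. Root A to D held 9.26, 9.22, 17.5 and 16.8 CPM, and shoot A to D 14.0, 13.9, 13.1 and 14.5 CPM. Root libraries A and B were below the shoot range and C and D above it. The log2 fold change was -0.13 ± 0.41 (edgeR adjusted p = 0.832), and it was 0.36 with library totals alone.

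The make-up of the receptor footprints can be compared without any scaling between libraries, since all 3 receptors were counted in the same library. The ratio of AHK4 to AHK3 counts was 1.48, 2.25, 1.48 and 1.46 in root A to D and 0.306, 0.288, 0.219 and 0.515 in shoot A to D. Between genes these ratios also carry coding length, which cancels between tissues. The ratio was 5.18 times as high in root as in shoot, with no overlap. The ratio of AHK4 to AHK2 was 2.43 to 6.5 in root and 0.929 to 1.27 in shoot, 3.62 times as high in root, again with no overlap. For AHK3 to AHK2 the ratios overlapped, at 1.65 to 3.27 in root and 2.15 to 4.39 in shoot. The ratios were chosen after the counts had been seen and are given as a description, with no test.

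As a share of the footprints of all 3 receptors, AHK4 held 53.3 ± 6.55% in root and 19.8 ± 4.56% in shoot (mean ± SD, n = 4). AHK3 held 32.6 ± 3.46% in root and 61.9 ± 8.02% in shoot, and AHK2 14.1 ± 4.68% and 18.3 ± 3.73%. The lowest AHK4 share in root was 47.9% in root C, 90 of 188 counts (exact binomial 95% interval 40.5 to 55.3%). The highest in shoot was 26.0% in shoot D, 51 of 196 counts (20.0 to 32.8%). Such intervals cover counting error only.

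**Figure D2:**
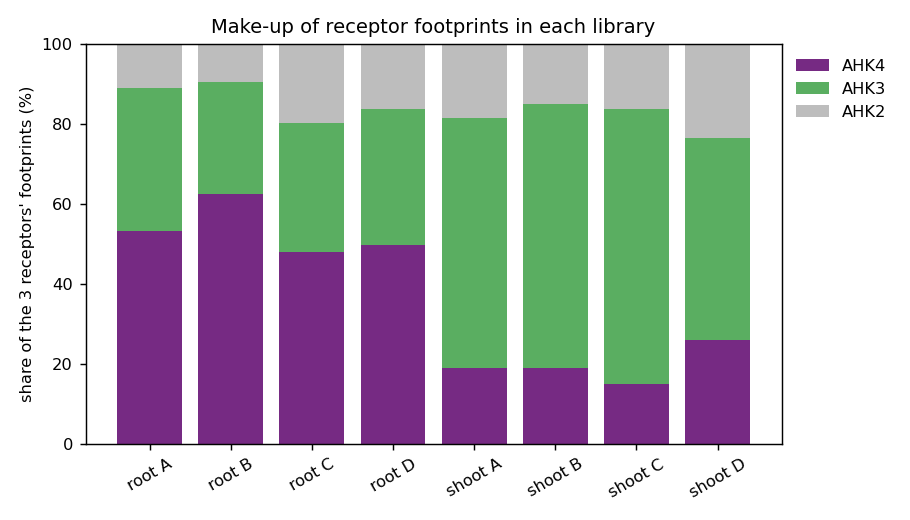
Stacked bars of the share of AHK4, AHK3 and AHK2 in the footprints of the 3 receptors, in percent, in each root and shoot library. AHK4 takes 47.9% to 62.6% of each root bar and 15.1% to 26.0% of each shoot bar, while AHK3 takes 50.5% to 68.7% of each shoot bar.

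All 3 type-B regulators had no overlap between tissues, each with root above shoot, and 2 of them passed the test. Of all genes, 19.6% had root above shoot with no overlap. ARR10, which acts with ARR1 and ARR12 in most cytokinin responses, had 43.5, 40.5, 32.1 and 46.0 CPM in root A to D and 15.0, 9.35, 19.6 and 17.7 CPM in shoot A to D. Its lowest root library, C, and its highest shoot library, also C, still stood apart. Its log2 fold change was 1.43 ± 0.31 (edgeR adjusted p = 0.00390).

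ARR12, which with ARR1 controls the size of the root meristem, had 51.3, 51.7, 57.7 and 47.5 CPM in root A to D and 37.5, 25.5, 25.9 and 29.0 CPM in shoot A to D. Shoot A was the highest shoot library and came nearest to the root range. Root exceeded shoot by 0.83 ± 0.24 on the log2 scale (edgeR adjusted p = 0.0167). With buffer B left out the adjusted p was 0.0795 (without root B) or 0.0685 (without shoot B), and with buffer C left out 0.0885 or 0.0785.

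ARR1 had 42.5, 37.4, 46.3 and 54.8 CPM in root A to D and 19.5, 32.9, 35.2 and 24.0 CPM in shoot. Root B and shoot C lay close together at the border of the groups. The log2 fold change of 0.73 ± 0.27 did not pass (edgeR adjusted p = 0.0567), and with library totals alone it was 1.22 (edgeR adjusted p = 0.00345). Without the buffer term it was 0.70 (edgeR adjusted p = 0.0316).

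Of the 4 type-A regulators 1 passed, ARR5, higher in root. ARR5, a quickly induced target widely used as a reporter of cytokinin response, had 12.76, 26.1, 24.1 and 27.0 CPM in root A to D and 7.39, 12.75, 8.73 and 8.20 CPM in shoot A to D. Root A was well below the other root libraries and level with shoot B, so the groups were all but touching. Root was higher by 1.25 ± 0.38 on the log2 scale (edgeR adjusted p = 0.0214). This call was lost in 6 of the 8 fits without 1 library, with adjusted p up to 0.0891 and values from 1.07 to 1.40. It was also lost with all libraries thinned to the smallest total, at 0.65 (edgeR adjusted p = 0.375).

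ARR7, a regulator that in the shoot meristem is repressed by the stem cell factor WUSCHEL, had few footprints, with lower values in root than in shoot in every buffer. The counts were 25, 0, 3 and 7 in root A to D and 52, 41, 28 and 37 in shoot A to D. In CPM these were 6.25, 0, 1.42 and 5.11 in root and 13.7, 11.6, 8.73 and 11.7 in shoot. All shoot libraries were above all root libraries, a separation that 25.4% of all genes showed in this direction. A count of 0 allows up to 3 counts, which in root B is 1.54 CPM and over the 8 libraries 0.750 to 2.19 CPM, for counting error only. The log2 fold change of -2.18 ± 0.83 did not pass (edgeR adjusted p = 0.0591). It passed with DESeq2 at -2.31 (DESeq2 adjusted p = 0.0155), with no low-count filter at -2.23 (edgeR adjusted p = 0.0295) and without the buffer term at -1.78 (edgeR adjusted p = 0.0477). It passed in 0 of the 8 fits without 1 library, with values from -2.75 to -1.55. Library totals alone gave -1.70 (edgeR adjusted p = 0.127) and thinning -1.93 (edgeR adjusted p = 0.128), neither of which passed.

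ARR4, which binds phytochrome B and so links cytokinin to light signals, had 70.3, 59.9, 71.4 and 30.7 CPM in root A to D and 33.8, 36.6, 34.3 and 39.1 CPM in shoot. Root D stood below all shoot libraries while the other root libraries stood above them. Over all libraries the log2 fold change was 0.66 ± 0.27 (edgeR adjusted p = 0.0832). It was 0.94 without root D (edgeR adjusted p = 0.0111) and 0.92 without shoot D (edgeR adjusted p = 0.0121). Only these 2 of the 8 fits without 1 library passed, and without root A the value was 0.50 (edgeR adjusted p = 0.310). The spread in root was a coefficient of variation of 32.7%, where counting alone gives 8.86%, and in shoot it was 6.78% where counting alone gives 9.05%.

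ARR9 was the remaining type-A regulator, with 26.8, 25.1, 38.3 and 28.5 CPM in root A to D and 26.4, 17.3, 24.0 and 18.0 CPM in shoot. Root was higher in each of the 4 buffers, but the groups overlapped at root B and shoot A. The log2 fold change was 0.47 ± 0.29 (edgeR adjusted p = 0.230), or 0.97 with library totals alone (edgeR adjusted p = 0.0181).

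**Figure D3:**
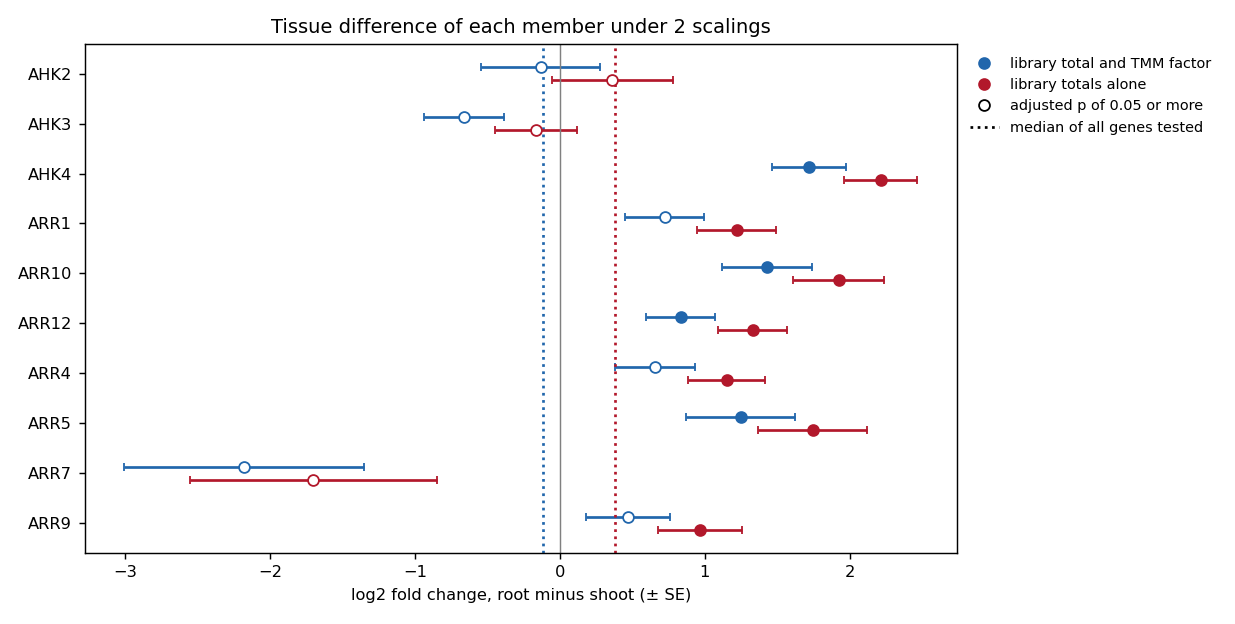
Log2 fold change, root minus shoot, with its SE for each of the 10 genes, in blue with library total and TMM factor and in red with library totals alone. Filled points have an adjusted p under 0.05 and dotted lines are the medians of all genes, at -0.12 and 0.38; AHK4, ARR10, ARR12 and ARR5 are filled under both scalings.

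The buffer tests picked out 0 of these genes, but they picked out hardly any gene at all. In the test of any difference among the 4 buffers, 0 of the 10 passed at an adjusted p under 0.05 (edgeR), and 0 had an unadjusted p under 0.05. Over all genes 0.0575% passed and 0.772% had an unadjusted p under 0.05. With shares so small, 0 of the 10 does not set these genes apart. The smallest unadjusted p among the 10 was 0.425, for ARR5 (edgeR). DESeq2 also called 0 of the 10 in each buffer test.

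Buffer A minus buffer C, the highest against the lowest salt, gave log2 fold changes from -0.58 for ARR5 to 1.38 for ARR7, with SEs of 0.33 to 1.101. Of the 10 genes, 0 passed and 0 had an unadjusted p under 0.05 (edgeR), against 0% and 1.62% of all genes. Buffer D minus buffer B, the lower against the higher Tris, gave -0.33 for ARR4 to 1.12 for ARR7, with SEs of 0.34 to 1.13. Here too 0 passed and 0 had an unadjusted p under 0.05 (edgeR), against 0.0447% and 1.99% of all genes.

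Whether the salt trend differed between root and shoot was tested with the interaction of tissue and MgCl2, in which KCl changes at the same rate. It called 0 of the 10 genes and 0 of all genes (edgeR). At an unadjusted p under 0.05 there were 0 of the 10 and 3.95% of all genes. The estimates per 10 mM MgCl2 ran from -1.01 ± 1.08 for AHK2 to 1.70 ± 1.99 for ARR7, both on the log2 scale with SE.

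**Figure D4:**
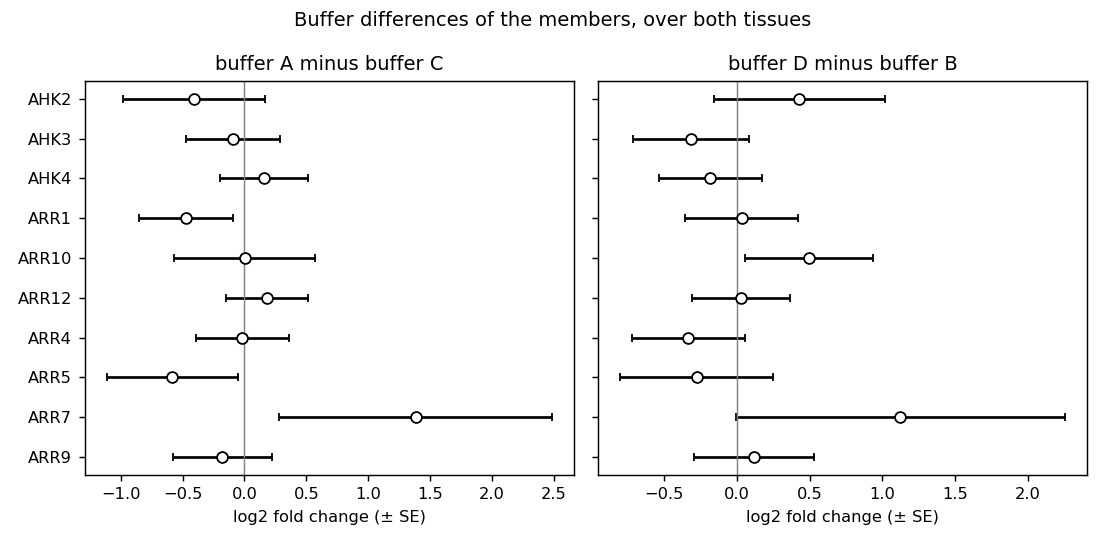
Log2 fold change with its SE of each gene between buffers A and C (left) and buffers D and B (right), over both tissues. All points are open because 0 of the 10 genes passed, and ARR7, the gene with the fewest counts, has the widest bars.

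The rest of the pathway was read from a list of 67 further cytokinin genes, from hormone synthesis to response. The low-count filter for the test was passed by 39 of them. Root was higher in 14 and shoot in 5, and the other 20 did not pass (edgeR adjusted p under 0.05), with a median log2 fold change of 0.79. A gene can pass the filter through the tissue where it is high, so these counts and the median depend in part on the filter. LOG1 passed with 0 root counts, and LOG2 and CKX3 with hardly any shoot count. Among genes with no overlap between tissues, only AHP4, ARR16 and ARR14 failed the filter, all with shoot above root. Of all genes tested 17.8% were higher in root and 22.6% lower, also the background for each group by role. Another 14 had no count in any library. With library totals alone 19 were higher and 5 lower, against 30.4% and 17.2% of all genes. Thinning all libraries to the smallest total left 8 higher and 4 lower. Of all genes 2079 were then higher and 2409 lower. Fewer of the listed genes were tested there, with CYP735A1, LOG1, LOG2 and CKX3 among those dropped. The lean to root was smaller with no low-count filter, where every gene with a count was tested. In that fit 12 were higher and 8 lower. Of all genes 2758 were then higher and 3911 lower. With 1 library left out, 8 to 14 were higher; the low end came without root A or shoot A, and 9 were higher without either library of buffer B or C.

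Between receptor and nucleus, 2 of the 4 phosphotransfer genes tested were higher in root and 0 lower. AHP1 (AT3G21510) averaged 147 ± 37.5 CPM in the root libraries against 10.7 ± 3.78 CPM in the shoot libraries (3.78 ± 0.31 on the log2 scale, edgeR adjusted p = 4.11e-06). Its counts were 573, 351, 358 and 131 in root A to D and 50, 30, 21 and 46 in shoot A to D. AHP3 (AT5G39340) was higher by 0.92 ± 0.28 (edgeR adjusted p = 0.0235), a call lost without either library of buffers A, C or D and with thinning. AHP4 (AT3G16360), named after its values were seen, did not pass the filter for the test. It had 0 counts in all root libraries and 10, 16, 4 and 15 in shoot A to D. AHP6, an inhibitor of the relay that lacks the phosphate-accepting residue, had 0 counts in all libraries.

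Both other histidine kinases that could be tested were higher in root. AHK5 (AT5G10720), a kinase that modulates root growth, had 94, 42, 78 and 10 counts in root A to D and 1, 9, 0 and 0 in shoot A to D (log2 fold change 5.27 ± 0.89, edgeR adjusted p = 0.000734). AHK1 (AT2G17820), an osmosensor, was higher by 0.87 ± 0.29 (edgeR adjusted p = 0.0352), but in 0 of the 8 fits without 1 library did it pass, nor with thinning or no low-count filter.

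Among the other type-A regulators, 2 of 3 tested were higher in root. ARR16 (AT2G40670), named after its values were seen, did not pass the filter for the test and lay to the shoot side. Its counts were 0, 2, 0 and 0 in root A to D and 16, 23, 25 and 7 in shoot A to D. ARR3 (AT1G59940), the closest relative of ARR4, averaged 25.1 ± 3.15 CPM in the root libraries and 1.02 ± 1.24 CPM in the shoot libraries, with a log2 fold change of 4.87 ± 0.70 (edgeR adjusted p = 0.000237). Its counts were 0, 10, 2 and 2 in shoot A to D, so the size of the fold is uncertain. ARR8 (AT2G41310), the closest relative of ARR9, was higher by 1.49 ± 0.40 (edgeR adjusted p = 0.0126), a call lost without either library of buffers A or B and with thinning. How reads that match several family members were counted is not given in the sources used here, so values of close relatives are uncertain. Of the 8 other type-B regulators 1 was tested, ARR2 (AT4G16110), with 1.37 ± 0.51 (edgeR adjusted p = 0.0564). ARR14 (AT2G01760) did not pass the filter for the test. Its counts were 5, 1, 0 and 0 in root A to D and 21, 31, 15 and 6 in shoot A to D. The type-C regulators ARR22 and ARR24 had 0 counts in all libraries.

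Hormone synthesis and activation showed calls in both directions. Of 6 synthesis genes tested, 3 were higher in root and 1 lower. IPT9 (AT5G20040), which modifies tRNA, averaged 14.8 ± 5.99 CPM in the root libraries and 63.8 ± 5.91 CPM in the shoot libraries (log2 fold change -2.13 ± 0.28, edgeR adjusted p = 0.000139), and IPT3 (AT3G63110), a phloem enzyme that responds to nitrate, had a value of 0.49 ± 0.31 (edgeR adjusted p = 0.251). The 3 higher genes, named after their values were seen, were CYP735A2 (AT1G67110) and CYP735A1 (AT5G38450), which make trans-zeatin forms, at 2.99 ± 0.41 and 4.41 ± 1.23, and IPT5 (AT5G19040) at 2.05 ± 0.65. CYP735A1 had 0, 3, 1 and 0 counts in shoot A to D, so the size of its fold is uncertain. The IPT5 call was lost without either library of buffers A, B or C, and the CYP735A1 call without either of A or C. With thinning CYP735A1 fell below the low-count filter and was not tested.

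Of the LOG genes, whose enzymes release the active base, 2 of 4 tested were higher in root and 1 lower. LOG7 (AT5G06300) was higher by 3.08 ± 0.63 (edgeR adjusted p = 0.00260), and LOG8 (AT5G11950) had a value of -0.55 ± 0.37 (edgeR adjusted p = 0.275). LOG1 (AT2G28305) and LOG2 (AT2G35990) were named after their values were seen. LOG1 had 0 counts in all root libraries and 31, 33, 20 and 37 in shoot A to D, at least 27.8-fold higher in shoot when 3 counts over the root libraries are set as the floor. LOG2 had 11, 5, 14 and 4 counts in root and 0, 0, 0 and 1 in shoot. Its call (edgeR adjusted p = 0.0187) was lost in 7 of the 8 fits without 1 library and with no low-count filter. With thinning both LOG1 and LOG2 fell below the low-count filter and were not tested.

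Of the cytokinin oxidases, which break the hormone down, 1 of 5 tested was higher in root and 1 lower. CKX7 (AT5G21482), the cytosolic form, averaged 1.504 ± 1.90 CPM in the root libraries and 32.6 ± 5.86 CPM in the shoot libraries (log2 fold change -4.47 ± 0.59, edgeR adjusted p = 0.000122). Its counts were 5, 1, 9 and 0 in root A to D, so the size of the fold is uncertain. CKX5 (AT1G75450) had a value of 0.26 ± 0.78 (edgeR adjusted p = 0.825). CKX3 (AT5G56970), named after its values were seen, had 26, 8, 12 and 8 counts in root and 0, 0, 0 and 1 in shoot (edgeR adjusted p = 0.00580). With thinning CKX3 fell below the low-count filter and was not tested. Of the 3 glucosyltransferases 1 was lower in root, the zeatin O-glucosyltransferase UGT85A1 (AT1G22400), at -2.24 ± 0.34 (edgeR adjusted p = 0.000370). UGT76C2 (AT5G05860) stood at -0.58 ± 0.28 (edgeR adjusted p = 0.129).

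Among transporters, ABCG14 (AT1G31770), which loads root-made cytokinin for transport to the shoot, was the 1 of 3 that passed, with 177 ± 20.5 CPM in the root libraries and 68.9 ± 8.66 CPM in the shoot libraries (log2 fold change 1.37 ± 0.15, edgeR adjusted p = 3.20e-05). PUP14 (AT1G19770), an importer, had a value of -0.57 ± 0.32 (edgeR adjusted p = 0.188). Of the cytokinin response factors 0 of 4 tested passed. CRF2 (AT4G23750) stood at -0.71 ± 0.52 (edgeR adjusted p = 0.314) and CRF3 (AT5G53290) at 1.37 ± 0.57 (edgeR adjusted p = 0.0830). Of the 4 KMD genes, whose F-box proteins mark type-B regulators for breakdown, 1 was higher and 1 lower in root. KMD2 (AT1G15670) was higher by 0.93 ± 0.30 (edgeR adjusted p = 0.0285), a call lost without either library of buffers A, B or C and with thinning, at 0.27 (edgeR adjusted p = 0.601), and KMD4 (AT3G59940) was lower at -2.14 ± 0.40 (edgeR adjusted p = 0.00138). The edgeR buffer tests called 0 of the 39 genes that could be tested.

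**Figure D5:**
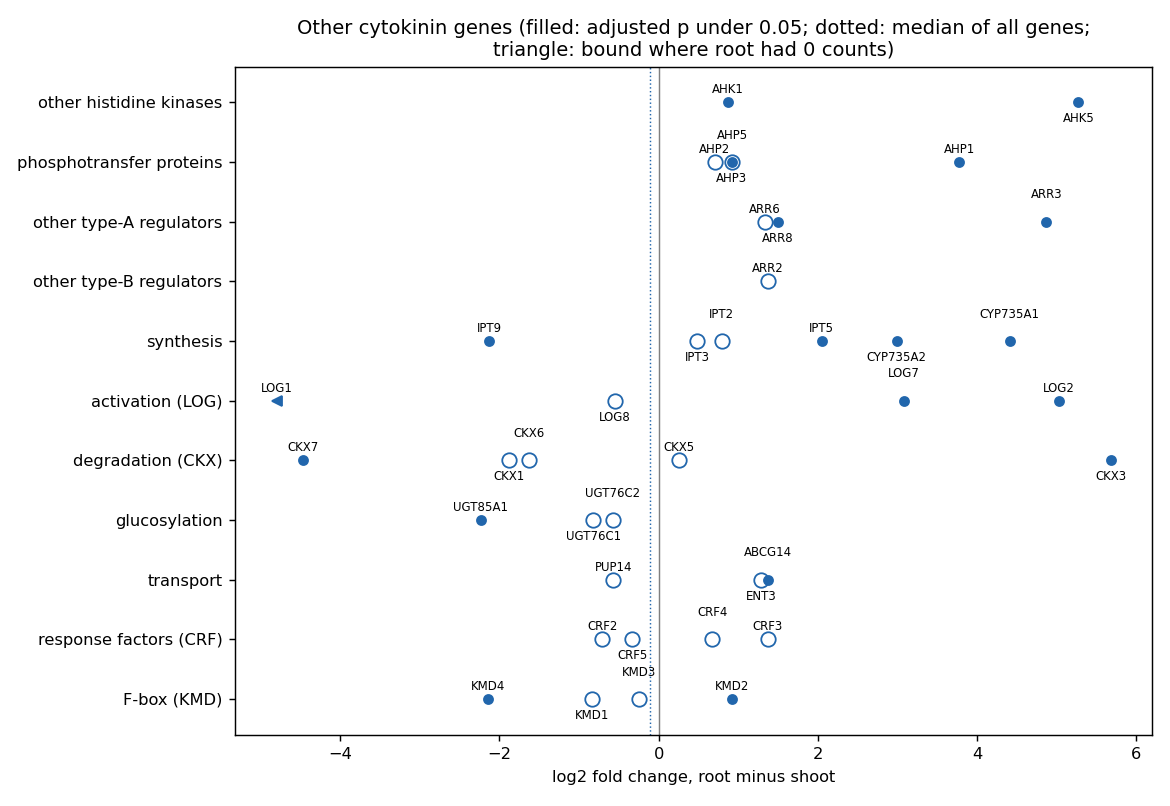
Log2 fold change, root minus shoot, of the 39 further cytokinin genes that were tested, in rows by role. Filled points have an adjusted p under 0.05 and the dotted line is the median of all genes at -0.12. The triangle marks LOG1 at the bound set by 3 counts over the root libraries. CKX3, AHK5, LOG2, ARR3, CYP735A1 and AHP1 lie farthest to the root side, and IPT9, CKX7, UGT85A1, KMD4 and LOG1 to the shoot side. CKX3, AHK5, LOG2, ARR3 and CYP735A1 had few shoot counts and are drawn at fitted values, so their order is uncertain.

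For each of the 10 genes the 2 genes with the most similar profile over the 8 libraries were found, by Pearson's r of log2(CPM + 1). These correlations are descriptions: the libraries share 2 tissues and 4 buffers, and the 2 genes were the best of 15664. AHK4 was most like AT5G61350 (r = 0.993) and NST-K1 (AT4G39390, r = 0.993), and ARR7 most like FOLB2 (AT5G62980, r = 0.995) and AT1G72740 (r = 0.994). ARR10 was most like RD2 (AT2G21620, r = 0.993), ARR12 like AT2G24300 (r = 0.992), ARR1 like GASA5 (AT3G02885, r = 0.987) and ARR5 like TMAC2 (AT3G02140, r = 0.971). For AHK2, AHK3, ARR4 and ARR9 the highest r was 0.975, 0.963, 0.984 and 0.985. In 0 of the 20 cases was the similar gene another of the 10.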

How the data were processed

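Ribosome footprints were counted on coding sequences in 8 libraries. The authors deposited raw counts per gene, whole numbers without normalization, in 1 table with a column per library. The submitters' processing notes list STAR 2.5.1b, Bowtie2 and TAIR10, with no role given to any. The counting program is not given in the sources used here. Tissue and buffer came from the titles. Every identifier on the gene lists, 87 of 87, was in a RefSeq table of TAIR10.1, used for names only.

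Counts were analysed in R 4.3.3 with edgeR 4.0.16. TMM factors were used, and filterByExpr took tissue as the group (minimum count 10, minimum total 15). Its minimum count acts as a CPM cutoff set at the median library total, so a smaller library needs fewer counts. Quasi-likelihood F tests used a model of tissue plus buffer, which left 3 residual degrees of freedom. P-values were adjusted by Benjamini-Hochberg over 15664 genes and called at 0.05. The SE is the absolute log2 fold change divided by the square root of F, and is approximate. The script was tested on simulated data. Alternatives were library totals alone, DESeq2 size factors, DESeq2 1.42.0, no low-count filter, thinning, no buffer term and leaving out each library. Thinning drew counts at random down to the smallest total and was not repeated. Shared buffers pair root with shoot by label, although deviations of same-buffer libraries from their tissue means correlated at -0.0028 to 0.0218 only. Planned levels per coding length were not computed, since coding lengths were not used here. Members and lists were chosen with earlier results of these data known. Named by rule were all members, the 2 genes of each further list with the most counts, any called in a buffer test, and the 2 most similar profiles per member, printed in part.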

Additional observations from a re-analysis of the deposited data

Results flagged for a closer look

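In 98 groups of 4 libraries, 1 for each tested cytokinin gene and tissue, 8 had a library whose gap to its nearest neighbour was large for the range of the group; chance gives about 1 in 20. Of the 8, 0 concerned the 10 genes of receptor and regulator set described above. AHK1 in shoot was lowest in shoot D, at 13.6 CPM. AHK5 in shoot was highest in shoot B, at 2.55 CPM. ARR3 in root was highest in root B, at 29.7 CPM, and CKX5 likewise, at 10.2 CPM. LOG2 in root was highest in root C, at 6.62 CPM. In shoot LOG2 and CKX3 each had a single count, in shoot D, or 0.315 CPM; a single count beside 3 libraries at 0 always meets the criterion, so these carry no weight and the chance share does not apply to them. UGT85A1 in root was highest in root D, at 21.2 CPM, with 7.004 to 9.22 CPM in the other root libraries.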

How the results depend on the processing

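AHK4 (log2 fold change 1.67 to 2.22) and ARR10 (1.21 to 1.93) passed under all 14 alternatives, ARR12 under 10, ARR5 under 7, ARR4 under 4, AHK3, ARR1 and ARR7 under 2 to 3, ARR9 under 1 and AHK2 under 0. The direction of all but AHK2 was the same throughout. With library totals alone 4767 genes were higher in root, with 7 of the 10 genes; AHK2 was 0.36, CRF5 0.16 and KMD3 0.25, and 14 genes passed for any buffer. DESeq2 size factors left 2 genes for buffer D minus B. DESeq2 called 24 for any buffer, 16 for D minus B, and 1 of the 10 lower in root. Without the low-count filter 23, 15 and 2 genes passed for any buffer, D minus B and the interaction of tissue and MgCl2, with 1 of the 10 and 8 further cytokinin genes lower in root. Thinning left 8 further genes higher, beside 2079 of all genes. KMD2, AHP3, ARR8 and AHK1 were no longer called, with KMD2 at 0.27, AHK2 at 0.67, IPT3 at -0.034 and KMD3 at 0.14. CYP735A1, LOG1, LOG2 and CKX3 fell below the low-count filter and were not tested. CRF3 was then called higher, at 2.87 (edgeR adjusted p = 0.0493). Without the replicate block of buffer, 6 of the 10 were higher and 2 lower, beside 3228 and 3791 of all genes. Leaving out 1 library gave 2 to 4 of the 10 higher, 0 to 1 lower (AHK3, without root D or shoot D) and 8 to 14 further genes higher. It gave 0 to 13 genes for any buffer, 0 to 17 for D minus B and 0 to 7 for the interaction. Values then ran from -0.34 to 0.023 for AHK2, -0.15 to 1.63 for IPT2, -0.30 to 0.62 for CKX5, -1.28 to 0.50 for CRF5 and -0.62 to 0.028 for KMD3. The causes were not tested. ARR7 had the fewest counts of the 10, 193 over all libraries, and the largest SE.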
